A study of Mus musculus with 30 samples.

Results

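The distal colon was set against the terminal ileum of untreated mice, to show how the messenger RNA of these 2 gut regions differs. Strain, age, treatment and the microbiota given for the mice are the same in both groups. The labels give the microbiota of the mice, not of each region, so any difference in local bacteria cannot be told apart from region. The comparison was between 6 of the 30 libraries of the series, 3 of distal colon and 3 of terminal ileum. These are all those that the labels give as untreated mice of 10 weeks with a specific-pathogen-free (SPF) microbiota. Both groups were C3H/HeOuJ mice, and no allele, transgene or agent is given for either. The series, whose title names intestinal macrophages, further holds ileum of germ-free mice (GF), both regions of germ-free mice colonized with an SPF flora in week 5 of age (COL), ileum at 6 weeks, and DSS-treated colon, DSS (dextran sulfate sodium) being a chemical that damages the lining of the colon. Each library is a 3′ tag library of total RNA from tissue, so epithelium, immune cells, muscle and nerve all contribute, and fewer cells of a type cannot be told apart from less RNA per cell. How many layers of the wall were taken and how many mice each library holds are not given in the sources used here, and no label says that each library of a group is a mouse of its own. The p-values therefore rest on the spread among the libraries as they are, which may be technical in part or in whole.

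The terminal ileum takes up bile acids and vitamin B12 through carriers of its own, still absorbs fat, sugar and amino acids, and shelters Paneth cells, which release antimicrobial peptides, at the base of its crypts. The distal colon recovers salt and water, burns short-chain fatty acids made by bacteria, and lies under a thick layer of mucus on a heavy muscle coat. Position along the gut is laid down in the embryo by transcription factors, among them the Hox genes, whose order along each of their chromosomal clusters follows the order of their expression from head to tail.

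Reads assigned to genes numbered 3830539, 4481539 and 5138739 in colon and 6773586, 4929233 and 2233837 in ileum. Levels are CPM (counts scaled to a common library size, with totals adjusted by the TMM method of edgeR), and a log2 fold change is colon minus ileum, followed by its standard error. The p-values are those of edgeR's quasi-likelihood test, adjusted by Benjamini-Hochberg over all 13807 genes tested. The spread of a gene was estimated over all 30 libraries of the series, and fewer genes were called with only the 6 libraries fitted. A gene was called at an adjusted p under 0.05. Where a region had no count, the fold was computed against a floor of 3 counts over its 3 libraries and is written "at least". Where it had 1 to 3 counts in all, the ratio is given with its 95% exact binomial interval. Floors and intervals cover counting error only, since they pool the counts of a region and leave out the spread between its libraries. The reads carry no molecular identifiers, so counting error itself may be understated. Correlations of log2 CPM were 0.932 to 0.958 among colon libraries, 0.917 to 0.938 among ileum libraries and 0.766 to 0.81 between regions. In all 6 libraries Ddx3y, on the Y chromosome, lay at 50.1 to 80.5 CPM and Xist at 0.411 CPM or less. Libraries of 1 region also differed among themselves. Ileum replicate 1 was high in B cell and follicle genes, with the B cell gene Ms4a1 at 167, 0.415 and 0 CPM in the 3 ileum libraries. Ileum replicate 3 was low in smooth muscle genes and had no count of the fat cell gene Adipoq, with the muscle myosin gene Myh11 at 199, 304 and 15 CPM and Adipoq at 35.3, 28.4 and 0 CPM. Values without these libraries are given where a result rests on them.

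Of the 13807 genes, 4484 differed between the regions (32.5%), 2108 higher in colon (15.3%) and 2376 lower in colon (17.2%). The median log2 fold change over all tested genes was -0.009. Counts within the gene lists and families below are to be read beside these shares. The 3 colon libraries lay above all 3 ileum libraries for 2394 genes (17.3%) and below them for 2621 (19%). Over 8-fold differences were called for 366 genes higher in colon (2.65%) and 487 lower in colon (3.53%). The 7 marker genes of each region chosen for checking the labels lay on the side of the label in all 6 libraries. Among them Aqp8, an aquaporin of colonocytes (chromosome 7, 123462291 to 123468004, plus strand), was read at 1218, 996 and 769.9 CPM in colon and had no count in any of the 3 ileum libraries (at least 4659-fold higher in colon, adjusted p = 1.6e-13). Car1, a carbonic anhydrase of the colonic surface (chromosome 3, 14766216 to 14808368, minus strand), was at 2060, 1367 and 2143 CPM in colon and 0.132, 0.207 and 0 CPM in ileum (13380-fold higher in colon, 95% interval 3704 to 110500, adjusted p = 4.94e-08). In the other direction, Fabp6, the bile acid binding protein of the ileocyte, was at 16820, 31410 and 33340 CPM in ileum and 6.91, 7.19 and 14.9 CPM in colon (log2 fold change -11.44 ± 1.13, adjusted p = 4.81e-08). Apoa4, an apolipoprotein of absorbed fat (chromosome 9, 46240696 to 46243459, plus strand), was at 235, 307 and 340.1 CPM in ileum and had no count in any of the 3 colon libraries (at least 1323-fold higher in ileum, adjusted p = 1.02e-15). The groups stood far apart in each, with a wide gap between the lowest library of the high region and the highest of the low one. Gene positions are those of GENCODE vM21 on mouse build mm10.

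**Figure D1:**
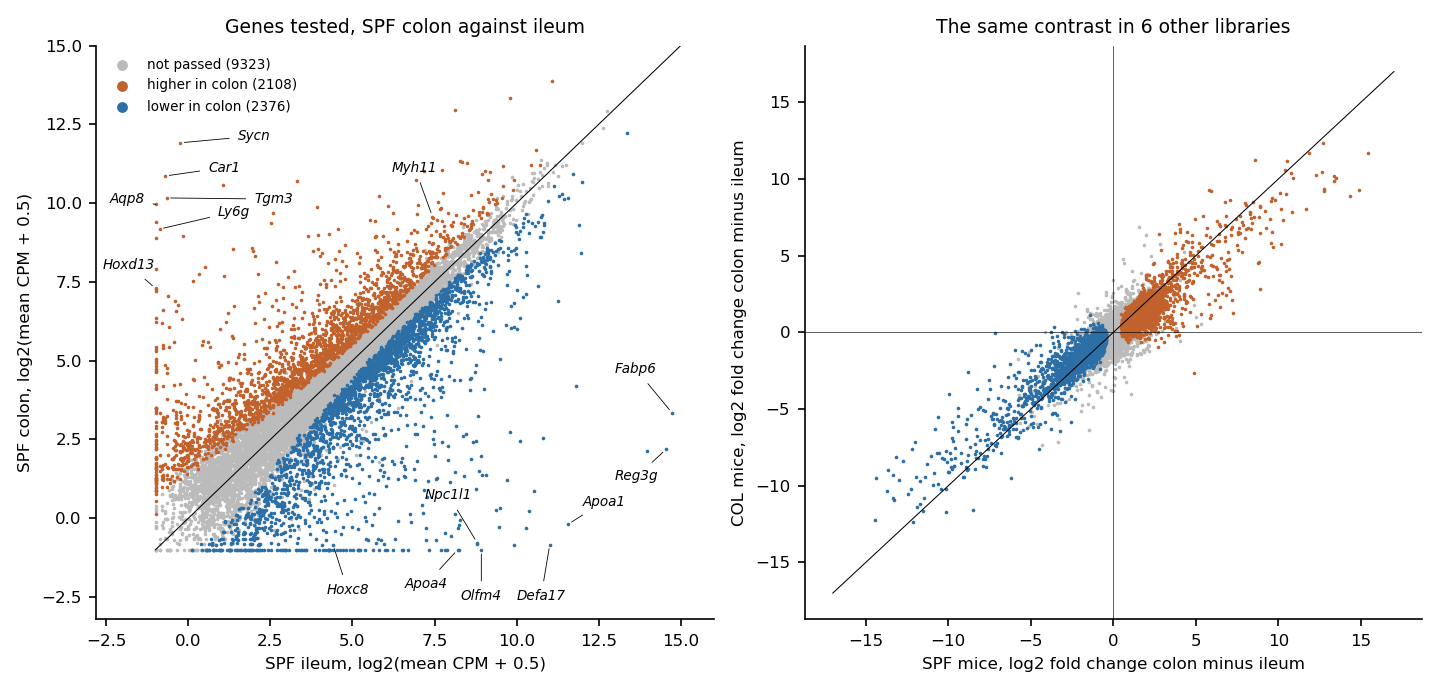
Left, mean level of each tested gene in the 3 SPF ileum libraries (x axis, log2 of mean CPM plus 0.5) against the 3 SPF colon libraries (y axis, same scale), with called genes coloured by direction and 15 genes named. Right, log2 fold change of colon over ileum of each tested gene in SPF mice (x axis) and in COL mice (y axis), which share no library. The 2108 genes higher and 2376 genes lower in colon lie on both sides of the diagonal, Aqp8 and Car1 far on one side and Fabp6, Apoa4 and Npc1l1 far on the other. In the right panel 96.9% of the 4484 called genes have the same sign in COL mice.

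Genes of bile acid and vitamin B12 uptake were mostly ileal. Of 12 tested, 10 were higher in ileum, against 17.2% of all tested genes, and 1 in colon, with a median log2 fold change of -5.50. The list summed to 19440, 34790 and 37080 CPM in the ileum libraries against 378.0 to 437 CPM in colon. Slc10a2, the apical carrier that brings bile acids into the ileocyte, was at 262, 228 and 355 CPM in ileum and 13.1, 3.9 and 4.12 CPM in colon (log2 fold change -5.36 ± 0.58, adjusted p = 1.07e-07). For Slc10a2 the log2 fold change was -6.12 without colon replicate 1. Slc51a, one part of the exporter on the basal side, was at 928, 1411 and 1394 CPM in ileum and 0, 0 and 0.896 in colon (log2 fold change -11.74 ± 0.63, adjusted p = 3.11e-13). Slc51a had a log2 fold change of -15.74 without colon replicate 3. Slc51b, the other part, was at 275, 453 and 629 CPM in ileum and 10.1, 4.32 and 12.5 in colon (log2 fold change -5.64 ± 0.35, adjusted p = 3.01e-14). No library of either region reached the range of the other for these carriers. Fgf15, the hormone by which the ileum signals bile acid return to the liver, was at 23.2, 17 and 71.4 CPM in ileum and had no count in any of the 3 colon libraries (at least 135-fold higher in ileum, adjusted p = 0.00121). Nr0b2, a repressor induced by the bile acid receptor, was at 14.4, 14.1 and 28 CPM in ileum and had no count in any of the 3 colon libraries (at least 78.2-fold higher in ileum, adjusted p = 0.000814). Nr1h4, that receptor (FXR), was itself higher in ileum, at 173, 212 and 396 CPM in ileum and 30.3, 78.7 and 46.6 in colon (log2 fold change -2.32 ± 0.28, adjusted p = 9.26e-08). For vitamin B12, the subunits of the receptor for its intrinsic factor complex were both higher in ileum. Cubn was at 118, 126 and 83.9 CPM in ileum and 0, 0 and 1.25 in colon (log2 fold change -7.79 ± 0.52, adjusted p = 6.81e-13, with a log2 fold change of -12.25 without colon replicate 3). Amn was at 385, 556 and 496 CPM in ileum and 82.4, 70.5 and 97.7 in colon (log2 fold change -2.52 ± 0.23, adjusted p = 1.39e-10). The carrier protein gene Tcn2 was higher in ileum too (log2 fold change -2.58 ± 0.26, adjusted p = 1.39e-09). Abcc3, an exporter of bile acid conjugates, was the member higher in colon, at 219, 181 and 142 CPM in colon and 72.8, 59.9 and 64.9 in ileum (log2 fold change 1.45 ± 0.23, adjusted p = 8.56e-06). Cyp27a1, an enzyme of bile acid synthesis, did not pass the test (adjusted p = 0.0691).

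The stretch before the start of 5 of these regional genes is printed because members that move together can be compared by their sequence there. Each is the 250 bases upstream of the start, 5′ to 3′ in the direction of the gene, from RefSeq on build GRCm38.p6, and capitals mark, on either strand, only the motif named for that gene. The start is the RefSeq one. By the GENCODE positions the window of Slc7a9 lies inside the gene, which starts at 35448796, and those of Slc51b and Slc10a2 reach into the gene, which ends at 65422955 and 5105351, while those of Fabp6 and Sis lie before it. In Fabp6 (chr11:43601563-43601812, minus strand) and Slc51b (chr9:65422774-65423023, minus strand) the capitals mark the inverted repeat GGTNANTNACC, the form of site known for FXR. In Slc7a9 (chr7:35448842-35449091, plus strand), an amino acid exchanger described further on, they mark AGATAA, the core read by GATA factors. In Slc10a2 (chr8:5105288-5105537, minus strand) and Sis (chr3:72967864-72968113, minus strand), the sucrase of the brush border, they mark TTTATTG, a CDX core.
Fabp6: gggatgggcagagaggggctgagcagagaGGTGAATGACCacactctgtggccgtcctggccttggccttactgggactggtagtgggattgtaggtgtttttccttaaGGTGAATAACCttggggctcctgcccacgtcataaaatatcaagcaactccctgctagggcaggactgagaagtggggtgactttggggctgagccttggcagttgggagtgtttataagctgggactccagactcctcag
Slc51b: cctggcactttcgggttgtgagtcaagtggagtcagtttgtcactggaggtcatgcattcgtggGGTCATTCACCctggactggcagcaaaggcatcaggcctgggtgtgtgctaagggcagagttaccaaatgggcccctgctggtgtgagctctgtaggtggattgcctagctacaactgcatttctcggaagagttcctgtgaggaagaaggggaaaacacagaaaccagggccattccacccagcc
Slc7a9: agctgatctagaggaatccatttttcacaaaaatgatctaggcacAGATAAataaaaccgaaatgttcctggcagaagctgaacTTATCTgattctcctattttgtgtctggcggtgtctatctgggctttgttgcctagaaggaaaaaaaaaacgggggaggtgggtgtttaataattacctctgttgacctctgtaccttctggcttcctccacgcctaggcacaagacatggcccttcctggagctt
Slc10a2: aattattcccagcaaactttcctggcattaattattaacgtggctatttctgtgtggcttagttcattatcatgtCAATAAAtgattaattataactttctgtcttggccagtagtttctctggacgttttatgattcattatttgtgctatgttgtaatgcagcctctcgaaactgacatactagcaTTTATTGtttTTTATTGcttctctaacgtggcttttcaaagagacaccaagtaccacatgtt
Sis: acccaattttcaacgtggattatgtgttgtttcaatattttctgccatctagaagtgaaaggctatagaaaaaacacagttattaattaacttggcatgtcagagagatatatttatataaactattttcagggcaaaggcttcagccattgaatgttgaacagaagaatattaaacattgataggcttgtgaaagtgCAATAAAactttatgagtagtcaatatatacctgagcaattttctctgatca
Fabp6 held the FXR repeat at 221 to 211 and again at 141 to 131 bases before the start, and Slc51b held it at 186 to 176. Slc10a2 held the CDX core 3 times, at 175 to 169, 62 to 56 and 52 to 46 bases before the start, and Sis held it at 52 to 46. Both strands were searched, each window was counted once, and motifs may overlap each other. RefSeq windows of this length were at hand for 10723 tested genes, 265 of them over 8-fold higher and 347 over 8-fold lower in colon and 7297 not called. The FXR repeat stood in 0.865% of the windows of genes over 8-fold lower in colon (Fabp6, Slc51b and AA986860), in 0% of those over 8-fold higher and in 0.196% of all. AGATAA stood in 13% of the windows lower in colon, 6.79% of those higher and 6.12% of all. The HNF4 core CAAAGTC stood in 8.93%, 6.42% and 3.56%, and TTTATTG in 4.61%, 5.28% and 2.68%. TATAAA stood in 15.6%, 15.5% and 7.16%. Windows of the strongly regional genes were also poorer in G and C, with medians of 52.4% in those lower and 53.6% in those higher in colon against 59.6% over all, and held a median of 4 and 6 CpG pairs against 15. The part of base composition in the motif shares was not tested, and a match is only a run of letters.

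Fat absorption was likewise an ileal group, with 19 of 24 tested genes higher in ileum, 2 higher in colon and a median log2 fold change of -3.53. Npc1l1, the carrier that takes up cholesterol (chromosome 11, 6211013 to 6230143, minus strand), was at 357, 559 and 419 CPM in ileum and 0.247, 0 and 0 CPM in colon (6286-fold higher in ileum, 95% interval 1128 to 248300, adjusted p = 5.22e-17). Mttp, which loads fat onto apolipoprotein B, was at 288, 514 and 485 CPM in ileum and 1.73, 0.822 and 1.61 in colon (log2 fold change -8.26 ± 0.39, adjusted p = 6.09e-17). Apob itself was at 251, 443 and 316 CPM in ileum and 0.74, 2.67 and 2.69 in colon (log2 fold change -7.3 ± 0.61, adjusted p = 9.2e-10). All 3 separated the regions without overlap, and so did the apolipoproteins that ride on these particles. Apoa1 was at 1913, 3293 and 3874 CPM in ileum and 0.74, 0.205 and 0.179 CPM in colon (log2 fold change -13.0 ± 0.90, adjusted p = 3.96e-11, with a log2 fold change of -13.79 without colon replicate 1). Apoc3 was at 78.9, 263 and 276 CPM in ileum and had no count in any of the 3 colon libraries (at least 812-fold higher in ileum, adjusted p = 2.46e-12). Of the fatty acid binding proteins, Fabp2 was at 2811, 4006 and 3911 CPM in ileum and 22.7, 17.5 and 13.3 in colon (log2 fold change -7.66 ± 0.71, adjusted p = 1.1e-08). Fabp1, the form of the upper small intestine, reached only 37.9, 17 and 7.49 CPM in ileum and had no count in colon (at least 129-fold higher in ileum, adjusted p = 2.67e-07). Enzymes that rebuild triglyceride, Mogat2 and Dgat1, were higher in ileum by log2 fold changes of -3.63 ± 0.25 and -3.17 ± 0.22 (adjusted p = 3.78e-13 and 2.16e-13). The 2 members higher in colon were Scarb1 and Plin2. Scarb1, a lipoprotein receptor, was at 13.3, 8.63 and 12.5 CPM in colon and 1.98, 1.04 and 0 in ileum (log2 fold change 3.17 ± 0.59, adjusted p = 7.52e-05, with a log2 fold change of 4.0 without ileum replicate 1). Plin2, of the coat of lipid droplets, was at 212, 176 and 238 CPM in colon and 93.2, 131 and 120.4 in ileum (log2 fold change 0.86 ± 0.23, adjusted p = 0.00387). Scarb1 was thus low in both regions, and Cd36, a fatty acid carrier, did not pass the test at 24.2, 17.7 and 15.6 CPM in colon and 17.2, 17.4 and 3.5 in ileum (adjusted p = 0.57).

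The digestive enzymes of the brush border were almost all ileal. Of 18 tested, 17 were higher in ileum and none in colon, with a median log2 fold change of -6.78, or -5.66 with genes absent from colon set at their bound. Enpep, an aminopeptidase, was at 449.8, 511 and 509 CPM in ileum and 1.23, 2.88 and 2.15 CPM in colon (log2 fold change -7.83 ± 0.30, adjusted p = 3.69e-19). Anpep, another, was at 502, 913 and 1085 CPM in ileum and 1.73, 1.44 and 2.33 in colon (log2 fold change -8.79 ± 0.41, adjusted p = 4.73e-17). In both the lowest ileum library lay far above the highest colon library. Sis, whose upstream stretch is printed above, was at 245, 295 and 358 CPM in ileum and 0, 0 and 0.896 in colon (log2 fold change -9.68 ± 0.69, adjusted p = 2.87e-10, with a log2 fold change of -13.68 without colon replicate 3). Alpi, the intestinal alkaline phosphatase, was at 284, 397 and 485 CPM in ileum and 4.44, 2.88 and 2.33 in colon (log2 fold change -6.94 ± 0.46, adjusted p = 1.17e-12). Mgam, the maltase, kept 83.3, 117 and 117 CPM in colon against 794, 1039 and 915 CPM in ileum (log2 fold change -3.11 ± 0.24, adjusted p = 3.98e-12). Lct, the lactase of suckling animals, was near the limit of detection, at 1.19, 4.77 and 0.999 CPM in ileum and 0.247, 0 and 0 in colon (34.2-fold higher in ileum, 95% interval 5.75 to 1392, adjusted p = 0.0082). Lct had an adjusted p of 0.0727 without ileum replicate 2. Mep1a was the member that did not pass (adjusted p = 0.0694), at 48.5, 56.6 and 55.9 CPM in ileum and 22.9, 43.2 and 32.6 in colon.

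Carriers of sugars, peptides and amino acids were mostly ileal, with 18 of 24 tested higher in ileum, 2 higher in colon and a median log2 fold change of -3.0 (-2.54 at the bound). Slc6a19, the main carrier of neutral amino acids, was at 54.8, 55.2 and 57.4 CPM in ileum and had no count in any of the 3 colon libraries (at least 267-fold higher in ileum, adjusted p = 4.77e-14). Slc3a1, the heavy chain of the cystine and dibasic amino acid exchanger, was at 222, 230.2 and 376 CPM in ileum and 0.74, 1.03 and 0 in colon (log2 fold change -8.89 ± 0.61, adjusted p = 7.95e-12). Slc3a1 had a log2 fold change of -9.67 without colon replicate 2 and -8.21 without colon replicate 3. Its light chain Slc7a9 was at 365, 368 and 486 CPM in ileum and 3.21, 4.11 and 7.17 in colon (log2 fold change -6.36 ± 0.37, adjusted p = 1e-14). Sugar carriers were read in both regions. Slc5a1, which takes up glucose with sodium, was at 1028, 1743 and 2005 CPM in ileum and 148, 138 and 210.4 in colon (log2 fold change -3.26 ± 0.27, adjusted p = 1.37e-11). The fructose carrier Slc2a5 was low in both, at 13.5, 21.8 and 20.5 CPM in ileum and 4.69, 2.47 and 6.09 in colon (log2 fold change -2.05 ± 0.37, adjusted p = 6.11e-05). Slc15a1, the carrier of short peptides, did not pass the test at 236, 266 and 186 CPM in ileum and 157, 176 and 226 in colon (adjusted p = 0.36). Of the members higher in colon, Slc6a14, a broad amino acid carrier, was at 440.4, 494 and 212 CPM in colon and 3.44, 0 and 6.49 CPM in ileum (log2 fold change 7.08 ± 1.11, adjusted p = 3.87e-05). For Slc6a14 the log2 fold change was 6.39 without ileum replicate 2. Slc36a1, a proton-coupled one, was at 108, 111 and 273 CPM in colon and 21.8, 23.2 and 19.5 in ileum (log2 fold change 2.92 ± 0.30, adjusted p = 1.86e-09).

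Mineral and vitamin carriers split between the regions, with 7 of 22 tested higher in colon and 6 higher in ileum, and a median log2 fold change of -0.42. Slc13a1, the sodium-sulfate carrier, was at 587, 556 and 979 CPM in ileum and 0, 0.411 and 0.537 CPM in colon (log2 fold change -10.92 ± 0.60, adjusted p = 2.23e-14). Slc34a2, a phosphate carrier, was at 126, 187 and 128 CPM in ileum and 14.8, 15 and 16.3 in colon (log2 fold change -3.26 ± 0.38, adjusted p = 8.22e-08). Slc52a3, a riboflavin carrier, was at 107, 141 and 169 CPM in ileum and 30.1, 26.3 and 29.2 in colon (log2 fold change -2.28 ± 0.20, adjusted p = 1.18e-10). On the colonic side stood Slc20a1, a phosphate carrier of another family, at 731, 655 and 723 CPM in colon and 72.3, 24.9 and 41.5 in ileum (log2 fold change 3.91 ± 0.31, adjusted p = 7.07e-12). Slc40a1, the only known iron exporter, was at 359, 266 and 395 CPM in colon and 13.3, 13.9 and 22 in ileum (log2 fold change 4.42 ± 0.54, adjusted p = 7.91e-07). Slc46a1, a proton-coupled folate carrier, was higher in colon as well, at 45.6, 39.3 and 51.1 CPM in colon and 5.81, 12.7 and 8.99 in ileum (log2 fold change 2.32 ± 0.36, adjusted p = 4.67e-06). Slc11a2, which takes up iron, and Cybrd1, an iron reductase, did not pass (adjusted p = 0.347 and 0.516).

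The ion and water carriers of the colonocyte held 17 of 33 tested genes higher in colon and 7 higher in ileum, with a median log2 fold change of 0.98. Their sums were 15810, 12600 and 12270 CPM in colon against 4458, 5677 and 6541 CPM in ileum. Slc26a3, which exchanges chloride for bicarbonate (chromosome 12, 31390871 to 31473917, plus strand), was at 2535, 2460 and 1330 CPM in colon and 155, 206 and 273 CPM in ileum (log2 fold change 3.32 ± 0.23, adjusted p = 3.7e-13). Atp12a, a proton-potassium pump of the distal colon (chromosome 14, 56365068 to 56388550, plus strand), was at 274, 591 and 544 CPM in colon and had no count in any of the 3 ileum libraries (at least 2323-fold higher in colon, adjusted p = 2.39e-09). Neither overlapped, and the level of Atp12a varied more among colon libraries than that of Aqp8. Of the carbonic anhydrases, Car2 was at 824, 798 and 873 CPM in colon and 7.0, 6.43 and 3.0 in ileum (log2 fold change 7.13 ± 0.39, adjusted p = 2.21e-15). Car4 was at 3688, 1955 and 1746 CPM in colon and 371, 275 and 437 in ileum (log2 fold change 2.77 ± 0.33, adjusted p = 6.57e-08). Car12 was higher in ileum, at 33.3, 70.7 and 56.9 CPM in ileum and 22.2, 14 and 2.69 in colon (log2 fold change -2.07 ± 0.40, adjusted p = 0.000203, with a log2 fold change of -2.7 without colon replicate 1). The 3 subunits of the sodium channel that aldosterone opens were all higher in colon. Scnn1a was at 125, 166 and 117 CPM in colon and 15.2, 15.3 and 14 in ileum (log2 fold change 3.18 ± 0.36, adjusted p = 4.22e-08). Scnn1b was at 10.4, 19.5 and 24.4 CPM in colon and had no count in ileum (at least 90.3-fold higher in colon, adjusted p = 1.04e-06). Scnn1g was at 7.4, 15.4 and 4.12 CPM in colon and 0, 0.415 and 0 in ileum (63.5-fold higher in colon, 95% interval 17.2 to 530.2, adjusted p = 0.000981). Hsd11b2, the enzyme that keeps glucocorticoids from the aldosterone receptor, was at 584, 684 and 785 CPM in colon and 47.7, 48.7 and 55.4 in ileum (log2 fold change 3.76 ± 0.39, adjusted p = 1.4e-08). The receptor gene Nr3c2 was at 4.19, 9.66 and 6.09 CPM in colon and 2.51, 2.28 and 2.5 in ileum (log2 fold change 1.45 ± 0.51, adjusted p = 0.0263). Nr3c2 had an adjusted p of 0.147 without colon replicate 2, 0.0677 without ileum replicate 1, 0.0823 without ileum replicate 2 and 0.0596 without ileum replicate 3. Fxyd4, a small subunit of the sodium pump, was at 176, 97.6 and 193 CPM in colon and had no count in any of the 3 ileum libraries (at least 749-fold higher in colon, adjusted p = 0.000139). Ano1, a chloride channel opened by calcium, was at 545, 493 and 459 CPM in colon and 12.2, 17 and 6.99 in ileum (log2 fold change 5.31 ± 0.36, adjusted p = 6.81e-13). Ano1 is also in the list of stroma and interstitial cells of Cajal, so its reads cannot be credited to colonocytes alone. Best2, a bestrophin anion channel of the goblet cell and mucus list, was at 154, 59 and 70.8 CPM in colon and 0, 0.829 and 0 in ileum (log2 fold change 8.28 ± 1.03, adjusted p = 1.13e-06). For Best2 the log2 fold change was 7.31 without ileum replicate 1 and 12.04 without ileum replicate 2.

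Several members of the same list were ileal or did not differ beyond the spread. Guca2b, the peptide uroguanylin, was at 482, 652 and 1027 CPM in ileum and 58.2, 31 and 9.32 in colon (log2 fold change -4.47 ± 0.46, adjusted p = 1.85e-08, with a log2 fold change of -5.16 without colon replicate 1). Guca2a, guanylin, did not pass at 914, 1141 and 1442 CPM in ileum and 1341, 1067 and 503 in colon (adjusted p = 0.697). Clca4b was at 465, 508 and 622 CPM in ileum and 0.493, 1.44 and 4.3 in colon (log2 fold change -7.89 ± 0.53, adjusted p = 2.46e-12, with a log2 fold change of -9.0 without colon replicate 3). Its neighbour Clca4a was at 268, 340.5 and 267 CPM in ileum and 42.2, 116 and 70.4 in colon (log2 fold change -1.94 ± 0.40, adjusted p = 0.000555). The water channel Aqp1 was higher in ileum (log2 fold change -2.39 ± 0.33, adjusted p = 1.55e-06). So was Aqp3 (at least 72.5-fold higher in ileum, adjusted p = 2.51e-10), while Aqp4 was higher in colon (log2 fold change 3.32 ± 0.53, adjusted p = 2.76e-05). Cftr, the chloride channel of crypts, was at 91, 67.4 and 118 CPM in colon and 69.4, 108 and 104 in ileum. Slc12a2, which loads chloride, was at 186, 186 and 168 CPM in colon and 114, 177 and 198 in ileum. Both overlapped and did not pass (adjusted p = 0.955 and 0.637).

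For the handling of short-chain fatty acids, 4 of 14 tested genes were higher in colon and 3 in ileum. Acsm3, a mitochondrial ligase of medium-chain acids, was at 195, 97.6 and 73.6 CPM in colon and 3.7, 6.43 and 7.49 CPM in ileum (log2 fold change 4.46 ± 0.42, adjusted p = 8.72e-10). Slc16a1, a carrier of lactate and butyrate, was at 114, 96.4 and 146 CPM in colon and 22.2, 25.9 and 26 in ileum (log2 fold change 2.28 ± 0.26, adjusted p = 1.65e-08). Pparg, a nuclear receptor of the colonic epithelium and of fat, was at 45.1, 26.3 and 19.4 CPM in colon and 5.81, 6.84 and 4.99 in ileum (log2 fold change 2.33 ± 0.36, adjusted p = 6.14e-06). Angptl4, an inhibitor of lipoprotein lipase, was higher in ileum at 43.2, 63 and 23.5 CPM in ileum and 4.19, 2.47 and 8.78 in colon (log2 fold change -3.06 ± 0.41, adjusted p = 8.82e-07). For Angptl4 the log2 fold change was -3.73 without colon replicate 3. Slc5a8, which takes up butyrate with sodium, did not pass at 309, 276 and 187 CPM in colon and 99.5, 155 and 256 in ileum (adjusted p = 0.0976).

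**Figure D2:**
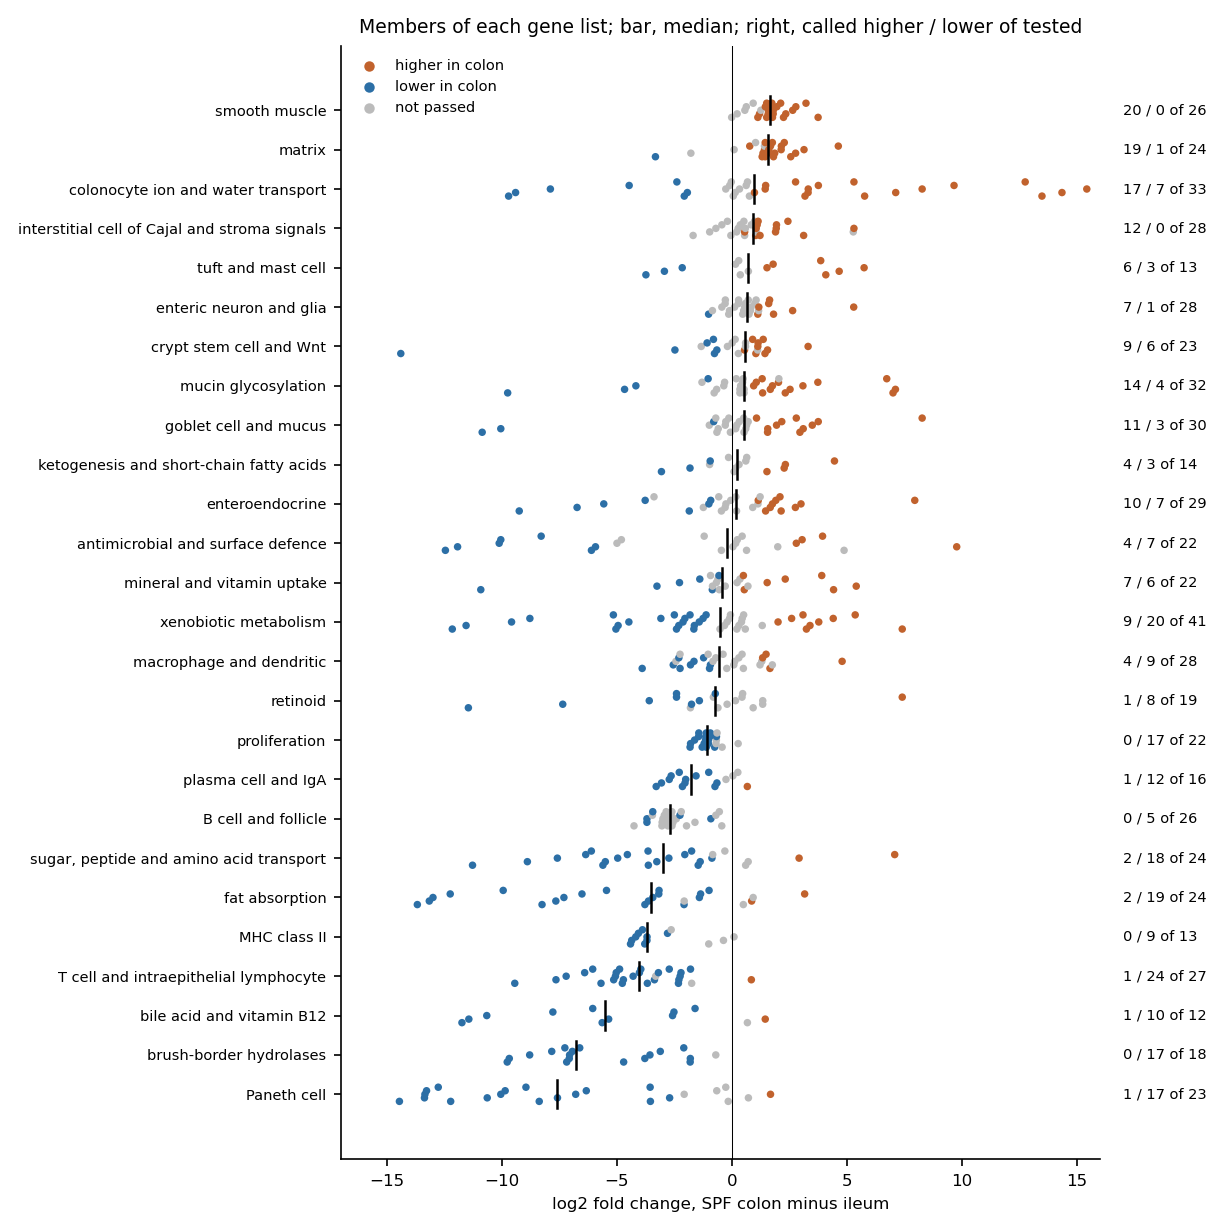
Log2 fold change of colon over ileum (x axis, colon to the right) of each tested member of 26 gene lists (1 line per list, 1 point per gene, called genes in colour), with a bar at the list's median and the numbers called in colon and ileum at the right. Brush-border, fat, bile acid, Paneth and T cell genes lie to the left with medians of -6.78, -3.53, -5.50, -7.59 and -4.02, and smooth muscle and matrix genes to the right with medians of 1.65 and 1.59.

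The transcription factors that mark position divided along their clusters. Of 28 Hox genes tested, 13 were higher in colon and 8 in ileum, and of the 11 tested in paralogue groups 9 to 13, the tail end of the clusters, 9 were higher in colon and 1, Hoxc9, in ileum. Hoxb13 (chromosome 11, 96194316 to 96197447, plus strand) was at 484, 1190 and 366 CPM in colon and had no count in any of the 3 ileum libraries (at least 3240-fold higher in colon, adjusted p = 4.63e-09). Hoxd13 (chromosome 2, 74668310 to 74671599, plus strand) was at 138, 210.5 and 120.1 CPM in colon and had no count in any of the 3 ileum libraries (at least 745-fold higher in colon, adjusted p = 1.03e-08). All 5 genes of the D cluster (chr2:74668310-74765142) from Hoxd9 to Hoxd13 were higher in colon, with Hoxd11 at 35.3, 44.8 and 43.4 CPM (at least 199.5-fold higher in colon, adjusted p = 4.32e-06). Hoxd9, the lowest, was at 0.74, 1.85 and 5.73 CPM in colon and 0.132, 0.207 and 0 in ileum (21.8-fold higher in colon, 95% interval 5.7 to 186, adjusted p = 0.00914, and 0.0795 without colon replicate 3). In the A cluster Hoxa9 was at 64.9, 88.8 and 85.3 CPM in colon and 0.132, 0 and 0.999 in ileum (387-fold higher in colon, 95% interval 132 to 1881, adjusted p = 1.94e-11). Hoxa10 was at 16.5, 32.7 and 34 CPM in colon with no count in ileum (at least 138-fold higher in colon, adjusted p = 8.04e-11). An antisense transcript there, Hoxa11os, was at 132, 122 and 192 CPM in colon and had no count in ileum (at least 730.2-fold higher in colon, adjusted p = 5.04e-13). Hoxa11 was at 5.67, 4.32 and 3.94 CPM in colon and had no count in ileum (at least 21.8-fold higher in colon, adjusted p = 6.91e-05). Reads of these overlapping genes cannot be told apart without the strand setting, which is not given.

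Toward the head end of the clusters the direction depended on the cluster. In paralogue groups 1 to 8, 4 of 17 tested genes were higher in colon and 7 in ileum. The 4 were of the A cluster (chr6:52155590-52260880). Among them Hoxa5 was at 55.2, 73.6 and 52.5 CPM in colon and 6.34, 12.9 and 0.999 in ileum (log2 fold change 3.03 ± 0.46, adjusted p = 9.5e-06, with a log2 fold change of 3.67 without ileum replicate 2). Hoxa7 was at 18.7, 14 and 23.8 CPM in colon and 0.793, 1.66 and 0.499 in ileum (log2 fold change 4.15 ± 0.61, adjusted p = 2.06e-06). The 7 were of the B cluster (chr11:96194316-96368256) and the C cluster (chr15:102921103-103036852). Hoxb7 was at 19.6, 13.7 and 46.9 CPM in ileum and 0.74, 2.26 and 4.12 in colon (log2 fold change -3.36 ± 0.64, adjusted p = 0.000202, with a log2 fold change of -4.0 without colon replicate 3). Hoxb6 was at 12.7, 9.95 and 26.5 CPM in ileum and 3.21, 2.06 and 3.94 in colon (log2 fold change -2.33 ± 0.57, adjusted p = 0.00235). Hoxb5 was at 23.6, 22.4 and 44.5 CPM in ileum and 6.66, 9.25 and 21.3 in colon (log2 fold change -1.22 ± 0.36, adjusted p = 0.0094, and 0.0691 without colon replicate 1, 0.0537 without colon replicate 2 and 0.0654 without ileum replicate 3). Within the B cluster, Hoxb5 to Hoxb8 were thus ileal, Hoxb9 did not pass at 14.1, 22.8 and 26 CPM in colon and 25.6, 10.6 and 41 in ileum (adjusted p = 0.659), and Hoxb13 was colonic. All 4 tested genes of the C cluster were higher in ileum, with Hoxc8 at 18.9, 33.8 and 9.49 CPM in ileum and 0, 0 and 0.179 in colon (327-fold higher in ileum, 95% interval 58.4 to 12970, adjusted p = 3.85e-10). Hoxc6 was at 21.9, 25.9 and 5.99 CPM in ileum and 0.493, 0.205 and 0 in colon (102-fold higher in ileum, 95% interval 34.5 to 496, adjusted p = 2.6e-09). Hoxc11, Hoxc12 and Hoxc13 had no count in any of the 6 libraries. The median log2 fold change over all 28 was -0.07 and turned positive without most single libraries, up to 0.85 without ileum replicate 2, as the family lay on both sides of 0.

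**Figure D3:**
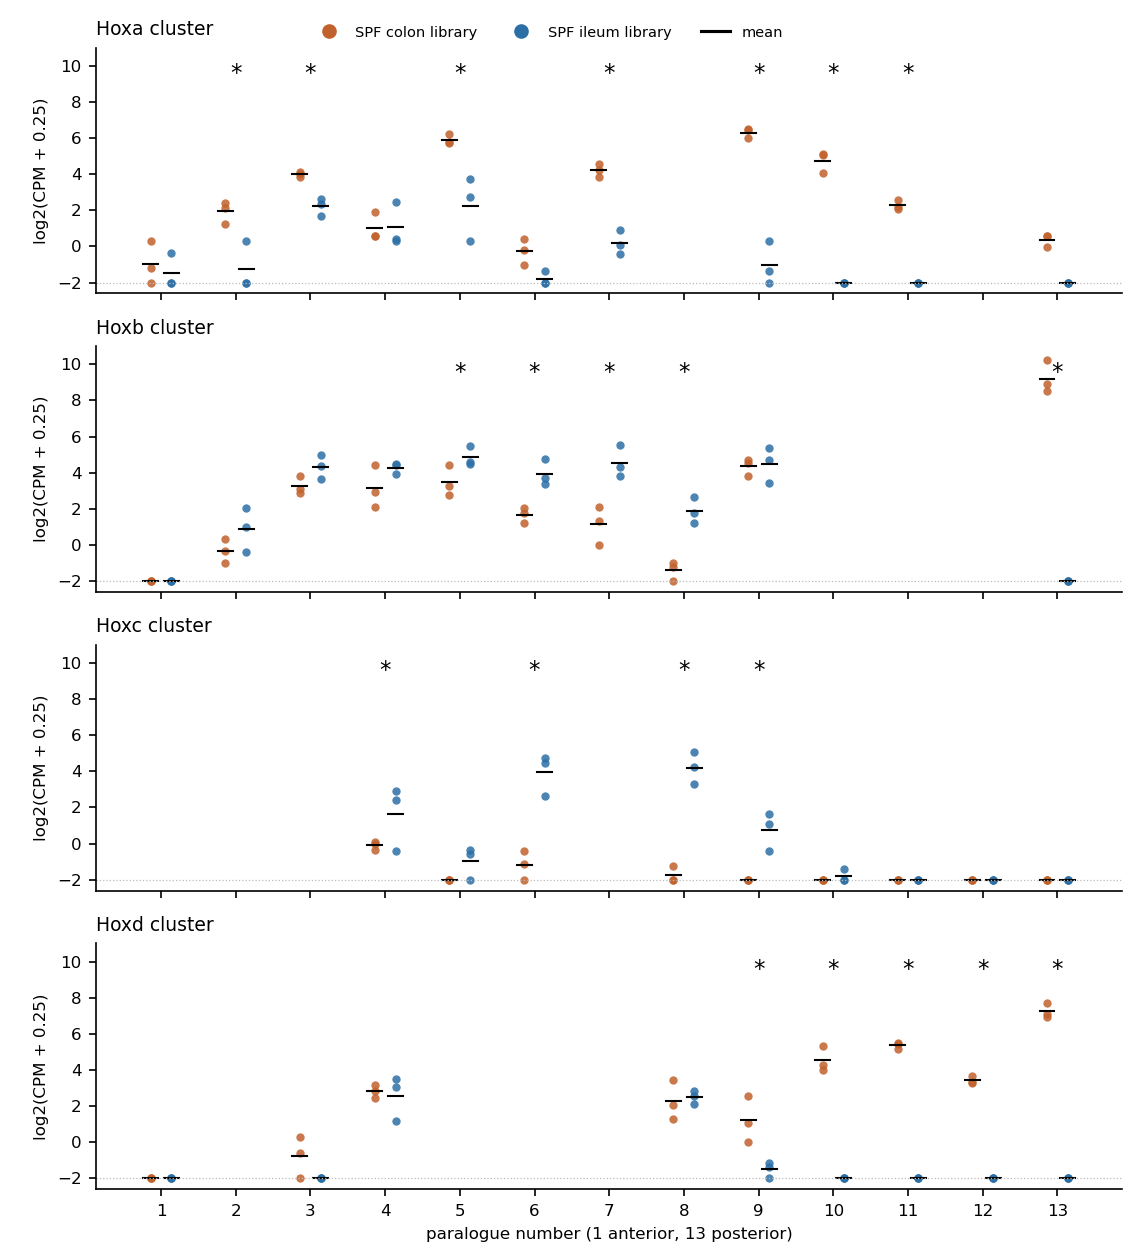
Levels of Hox genes in the 3 SPF colon and 3 SPF ileum libraries (1 point per library, y axis log2 of CPM plus 0.25), by paralogue number (x axis) in clusters A, B, C and D (1 panel each). Stars mark an adjusted p under 0.05 and the dotted line marks no count. Hoxd9 to Hoxd13 are higher in colon, the tested C cluster genes Hoxc4, Hoxc6, Hoxc8 and Hoxc9 are higher in ileum, and the B cluster changes side between Hoxb8 and Hoxb13.

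Of the other transcription factors with a regional role, 12 of 45 tested were higher in colon and 15 in ileum. The forkhead factor Foxd2 was at 38.7, 29.4 and 18.3 CPM in colon and 0.132, 0.207 and 0 in ileum (199.5-fold higher in colon, 95% interval 54.9 to 1653, adjusted p = 3.59e-07). Foxq1, of the same family, was at 44.1, 53.9 and 56.4 CPM in colon and 6.74, 2.9 and 3.0 in ileum (log2 fold change 3.5 ± 0.50, adjusted p = 3.16e-06, with a log2 fold change of 4.12 without ileum replicate 1). Foxa2, which serves secretory cells among others, was at 64.6, 103 and 109.7 CPM in colon and 7.4, 7.88 and 5.99 in ileum (log2 fold change 3.67 ± 0.29, adjusted p = 8.48e-12). Foxq1 was thus detected in ileum at a lower level, whereas Foxd2 was nearly absent there. Gata5, a GATA factor of the small intestine (chromosome 2, 180325133 to 180334699, minus strand), was at 21.4, 31.3 and 52.9 CPM in ileum and had no count in any of the 3 colon libraries (at least 141-fold higher in ileum, adjusted p = 1.4e-12). Gata4, the GATA factor of the upper small intestine, had 20 counts in ileum and 1 in colon and was too low to test. Gata6 overlapped at 63.1, 68 and 58.2 CPM in colon and 50.6, 76.3 and 62.9 in ileum (adjusted p = 0.997). Of the factors whose cores were searched in the printed stretches, Cdx2 was higher in ileum at 59.6, 98.7 and 41.5 CPM in ileum and 15.8, 15.6 and 12.5 in colon (log2 fold change -2.2 ± 0.36, adjusted p = 1.97e-05). Cdx1 did not pass at 322, 382 and 444 CPM in ileum and 330.2, 333 and 567 in colon (adjusted p = 0.748). Hnf4g was at 135, 192 and 173 CPM in ileum and 17, 17.7 and 29.4 in colon (log2 fold change -2.95 ± 0.23, adjusted p = 6.56e-12). Hnf4a overlapped at 297, 416 and 469 CPM in ileum and 422, 490.0 and 234 in colon (adjusted p = 0.904).

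Several ileal factors were also counted in colon. Osr2, a zinc finger factor, was at 189.5, 312 and 329 CPM in ileum and 1.73, 0.617 and 4.48 CPM in colon (log2 fold change -6.85 ± 0.41, adjusted p = 3.8e-14, with a log2 fold change of -7.89 without colon replicate 3). Isx, which limits vitamin A uptake, was at 107, 147 and 165 CPM in ileum and 0.986, 0.411 and 1.07 in colon (log2 fold change -7.36 ± 0.59, adjusted p = 1.98e-10). Creb3l3, which drives apolipoprotein genes, was at 135, 234 and 192 CPM in ileum and 0.493, 1.23 and 3.94 in colon (log2 fold change -6.52 ± 0.55, adjusted p = 7.64e-10, with a log2 fold change of -7.66 without colon replicate 3). Maf, a leucine zipper factor, was even across the ileum libraries, at 424, 432 and 442 CPM in ileum and 23.4, 30.6 and 31.2 in colon (log2 fold change -3.92 ± 0.22, adjusted p = 1.61e-15). Tbx3 was at 178, 222 and 220.2 CPM in ileum and 19.2, 9.04 and 13.1 in colon (log2 fold change -3.91 ± 0.31, adjusted p = 8.73e-12). The lipid sensor Ppara was higher in ileum (log2 fold change -2.15 ± 0.27, adjusted p = 1.17e-07), and its relative Pparg, given above, in colon. Vdr, the vitamin D receptor, did not pass at 281, 237 and 306 CPM in colon and 219, 304 and 283 in ileum (adjusted p = 0.925).

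Mucus genes and the enzymes that decorate mucin with sugars held calls on both sides, more of them in colon. Of 30 goblet cell and mucus genes, 11 were higher in colon and 3 in ileum (8 and 5 without ileum replicate 1). The main mucin Muc2 was at 7929, 4652 and 3300 CPM in colon and 3598, 5679 and 9801 CPM in ileum and did not pass (adjusted p = 0.656). Its partners Zg16, Clca1, Tff3, Fcgbp and Agr2 did not pass either (adjusted p = 0.757, 0.36, 0.568, 0.898 and 0.426). Of those higher in colon, Lypd8, a surface protein that keeps flagellated bacteria away, was at 19990, 14800 and 10450 CPM in colon and 1410, 2302 and 2768 in ileum (log2 fold change 2.8 ± 0.32, adjusted p = 1.66e-08). It held the largest mean share of the counts of the colon libraries, 1.62% ± 0.491 (SD, n = 3), though S100a6 lay above it in colon replicate 3. The membrane mucin Muc4 was at 19.2, 15.8 and 16.5 CPM in colon and 0.396, 1.24 and 3.5 in ileum (log2 fold change 3.76 ± 0.48, adjusted p = 1.88e-07). Muc4 had a log2 fold change of 3.06 without ileum replicate 1 and 4.44 without ileum replicate 3. Creb3l1, a factor of secretory load, was at 398, 355 and 178 CPM in colon and 29.5, 33.2 and 47.4 in ileum (log2 fold change 3.1 ± 0.36, adjusted p = 1.05e-07). On the ileal side, Itln1, a lectin, was at 989, 1723 and 1719 CPM in ileum and 1.48, 0.205 and 2.33 in colon (log2 fold change -10.05 ± 0.60, adjusted p = 2.29e-13, with a log2 fold change of -10.81 without colon replicate 3). Prap1, a secreted protein of the epithelium, was at 1124, 1469 and 1363 CPM in ileum and 0.493, 0.617 and 0.896 in colon (log2 fold change -10.86 ± 0.42, adjusted p = 3.69e-19).

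Of 32 mucin glycosylation genes, 14 were higher in colon and 4 in ileum, with a median log2 fold change of 0.53. B3galt5, which extends sugar chains with galactose, was at 230.3, 327 and 514 CPM in colon and 1.59, 2.28 and 6.49 CPM in ileum (log2 fold change 7.01 ± 1.26, adjusted p = 0.000193). The sialyltransferase St6galnac6 was at 164, 116 and 337 CPM in colon and 1.72, 3.11 and 0 in ileum (log2 fold change 6.74 ± 0.47, adjusted p = 4.66e-12). St3gal6, another, was at 306, 249.5 and 334 CPM in colon and 25.8, 23.6 and 15.5 in ileum (log2 fold change 3.74 ± 0.28, adjusted p = 1.96e-12). B4galnt2, which builds the Sda antigen, was on the ileal side at 475, 824 and 868 CPM in ileum and 0, 0.617 and 1.61 in colon (log2 fold change -9.75 ± 0.44, adjusted p = 2.44e-17). B4galnt2 had a log2 fold change of -10.96 without colon replicate 3. B4galnt1 was ileal as well (log2 fold change -4.67 ± 0.29, adjusted p = 3.76e-14). So was the branching enzyme Gcnt4 (log2 fold change -4.17 ± 0.52, adjusted p = 5.32e-07, with a log2 fold change of -4.82 without colon replicate 3). Fut2, the fucosyltransferase of secretor status, was at 22.2, 20.1 and 28.7 CPM in colon and 1.98, 3.32 and 17 in ileum and did not pass (adjusted p = 0.0934), ileum replicate 3 lying close to the colon range. Fut9 was at 70.3, 83.2 and 68.3 CPM in colon and had no count in any of the 3 ileum libraries (at least 354-fold higher in colon, adjusted p = 5.97e-06).

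Most Paneth cell genes were ileal. Of 23 tested, 17 were higher in ileum and 1, Nupr1, in colon, with a median log2 fold change of -7.59 (-4.13 with genes absent from colon set at their bound). The list summed to 6834, 13700 and 19450 CPM in ileum against 2305, 1783 and 1457 CPM in colon, and 5 of the 23 did not pass. Lyz1, the lysozyme of Paneth granules, was at 685, 1614 and 3102 CPM in ileum and 4.19, 7.81 and 4.12 CPM in colon (log2 fold change -8.38 ± 0.49, adjusted p = 7.2e-14, with a log2 fold change of -7.76 without ileum replicate 3). Mmp7, which cleaves prodefensins, was at 164, 423 and 735 CPM in ileum and 0, 0.205 and 0 in colon (4790-fold higher in ileum, 95% interval 859 to 189300, adjusted p = 3.57e-10). Defa17, an alpha defensin (chromosome 8, 21655780 to 21656735, plus strand), was at 758, 1708 and 3713 CPM in ileum and 0, 0 and 0.179 in colon (21570-fold higher in ileum, 95% interval 3871 to 852100, adjusted p = 4.85e-14). In each of these the ileum libraries ranked in the same order, replicate 3 highest and replicate 1 lowest. Defa24, Defa29 and Defa30 lay at 415, 1188 and 1303, 101, 344 and 259 and 127, 178 and 367 CPM in ileum, with 1 count in all the colon libraries together. Counts of single defensins are uncertain, because the genes are near-identical and reads that align to several places were left out. Pla2g2a, a bactericidal phospholipase, was also read in colon, at 2148, 4549 and 5225 CPM in ileum and 524, 266 and 225 in colon (log2 fold change -3.55 ± 0.30, adjusted p = 3.12e-11). Lyz2, the lysozyme of macrophages, did not pass at 77.3, 9.54 and 7.49 CPM in ileum and 18.2, 29.8 and 14.9 in colon (adjusted p = 0.443), ileum replicate 1 being the high library.

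Of 22 antimicrobial and surface defence genes tested, 7 were higher in ileum and 4 in colon. The share in colon is near the 15.3% of all tested genes, and that in ileum stands against 17.2%. The C-type lectins Reg3b and Reg3g, which bind bacteria, were among the most abundant ileal transcripts. Reg3g was at 8367, 22480 and 41040 CPM in ileum and 1.97, 1.03 and 9.14 CPM in colon (log2 fold change -12.46 ± 1.49, adjusted p = 1.11e-06). For Reg3g the log2 fold change was -13.95 without colon replicate 3 and -11.85 without ileum replicate 3. Reg3b was at 8775, 15230 and 23900 CPM in ileum and 0.74, 1.64 and 9.14 in colon (log2 fold change -11.93 ± 1.55, adjusted p = 3.53e-06, with a log2 fold change of -13.62 without colon replicate 3). The ileum libraries thus differed among themselves by several fold, with replicate 3 highest, yet the lowest of them lay far above every colon library. Nos2, the inducible nitric oxide synthase, was higher in ileum at 212, 232 and 543 CPM in ileum and 12.3, 0.822 and 3.58 in colon (log2 fold change -5.93 ± 0.72, adjusted p = 9.9e-07). Nos2 had a log2 fold change of -7.16 without colon replicate 1. On the colonic side stood Wfdc2, a small secreted protease inhibitor with antibacterial action, at 1165, 1166 and 2237 CPM in colon and 1.85, 1.87 and 0.999 CPM in ileum (log2 fold change 9.78 ± 0.54, adjusted p = 3.01e-14). Saa1, a serum amyloid with a near-identical copy that can share its reads, was at 2743, 2369 and 2570 CPM in colon and 160.3, 338 and 428 in ileum (log2 fold change 3.06 ± 0.63, adjusted p = 0.000681). Retnlb, a resistin-like peptide of goblet cells, overlapped at 1480, 1429 and 654 CPM in colon and 264, 503 and 1528 in ileum (adjusted p = 0.424). Pigr, which carries IgA across the epithelium, overlapped as well at 3337, 1889 and 1910 CPM in colon and 1703, 2893 and 2318 in ileum (adjusted p = 0.905).

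Hormone genes of enteroendocrine cells differed by peptide, with 10 of 29 tested higher in colon and 7 in ileum. The counts were 8 and 9 without colon replicate 1, 9 and 5 without colon replicate 2 and 10 and 5 without colon replicate 3. They were 8 and 7 without ileum replicate 1 and 9 and 6 without ileum replicate 2. Insl5, an insulin-like peptide of the hindgut (chromosome 4, 103017872 to 103026842, minus strand), was at 522, 375 and 226 CPM in colon and 1.06, 0.622 and 4.5 CPM in ileum (log2 fold change 7.96 ± 0.50, adjusted p = 3.11e-13). For Insl5 the log2 fold change was 8.65 without ileum replicate 3. Pyy, peptide YY, was at 855, 716 and 663 CPM in colon and 127, 211 and 186 in ileum (log2 fold change 2.09 ± 0.25, adjusted p = 6.43e-08). Tph1, the enzyme of serotonin synthesis in the gut, was at 37, 33.1 and 19.5 CPM in colon and 4.23, 4.15 and 2.0 in ileum (log2 fold change 3.01 ± 0.54, adjusted p = 5.77e-05). On the ileal side, Nts, neurotensin (chromosome 10, 102481756 to 102490486, minus strand), was at 200.0, 317 and 402 CPM in ileum and 0, 0.822 and 0.537 CPM in colon (log2 fold change -9.25 ± 0.49, adjusted p = 2.36e-15). For Nts the log2 fold change was -9.85 without colon replicate 2. Sct, secretin, was at 116, 168 and 122 CPM in ileum and 6.41, 7.81 and 15.1 in colon (log2 fold change -3.77 ± 0.30, adjusted p = 8.73e-12). Cck, cholecystokinin, was at 20.1, 26.5 and 27 CPM in ileum and 0, 0.617 and 0 in colon (112-fold higher in ileum, 95% interval 38 to 547, adjusted p = 5.56e-07). Gip was at 23.4, 56 and 11.5 CPM in ileum and 1.48, 0 and 0.537 in colon (log2 fold change -5.57 ± 0.68, adjusted p = 4.27e-07, with a log2 fold change of -6.65 without colon replicate 1 and -4.84 without ileum replicate 2). Each of these 4 was at or below 15.1 CPM in every colon library. Gcg, the precursor of glucagon-like peptides, was at 52.6, 53.5 and 89.4 CPM in ileum and 48.6, 23.4 and 30.5 in colon (log2 fold change -0.92 ± 0.31, adjusted p = 0.0221). Gcg had an adjusted p of 0.121 without colon replicate 2, 0.0776 without colon replicate 3 and 0.124 without ileum replicate 3. Sst, somatostatin, did not pass at 24.7, 7.4 and 6.45 CPM in colon and 8.59, 32.4 and 15.5 in ileum (adjusted p = 0.39). The granule proteins Chga and Chgb, shared by hormone cells, were higher in colon. The values were 54.5, 30.8 and 28.3 CPM in colon and 7.13, 15.6 and 20.0 in ileum for Chga (log2 fold change 1.47 ± 0.38, adjusted p = 0.00319) and 98.6, 77.3 and 63.2 CPM in colon and 18.1, 24.9 and 20.5 in ileum for Chgb (log2 fold change 1.91 ± 0.29, adjusted p = 3.94e-06).

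Tuft and mast cell genes were low in both regions, and 6 of 13 tested were higher in colon and 3 in ileum (5 and 1 without colon replicate 3, 6 and 1 without ileum replicate 2). The proteases of connective tissue mast cells were colonic. Cma1 was at 6.17, 14 and 5.02 CPM in colon and 0.264, 0 and 0 in ileum (60.0-fold higher in colon, 95% interval 16.3 to 502, adjusted p = 3.36e-05). Tpsb2 was at 7.89, 6.58 and 8.6 CPM in colon and 0.132, 0.622 and 0 in ileum (log2 fold change 4.67 ± 0.87, adjusted p = 8.46e-05, with a log2 fold change of 5.92 without ileum replicate 2). Mcpt1, the protease of mucosal mast cells, was ileal at 4.1, 16.2 and 31 CPM in ileum and 0.493, 0.411 and 2.51 in colon (log2 fold change -3.74 ± 0.79, adjusted p = 0.000578). For Mcpt1 the log2 fold change was -5.09 without colon replicate 3 and -3.05 without ileum replicate 3. The tuft cell genes Trpm5 and Dclk1 did not pass (adjusted p = 0.795 and 0.332).

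Crypt genes split, 9 of 23 tested being higher in colon and 6 in ileum (7 to 9 and 3 to 5 with 1 library left out, 3 without colon replicate 3). Olfm4, a secreted protein of small intestinal stem cells (chromosome 14, 79984081 to 80023139, plus strand), was at 316, 577 and 564 CPM in ileum and had no count in any of the 3 colon libraries (at least 2116-fold higher in ileum, adjusted p = 2.15e-12). Lgr5, the receptor that marks crypt base stem cells, was at 12.7, 23.6 and 44.5 CPM in ileum and 3.21, 4.52 and 6.09 in colon (log2 fold change -2.48 ± 0.43, adjusted p = 3.37e-05). Sox9, a factor of crypt progenitors, was higher in colon at 404, 568 and 419 CPM in colon and 179.6, 252 and 244 in ileum (log2 fold change 1.04 ± 0.25, adjusted p = 0.00164). So was the Wnt-driven receptor Ephb2 (log2 fold change 1.55 ± 0.27, adjusted p = 3.4e-05). Its relative Ephb3 followed (log2 fold change 1.44 ± 0.31, adjusted p = 0.000549). Rnf43, a Wnt feedback gene, did not pass at 24.4, 25.5 and 24.7 CPM in colon and 21, 24.5 and 29.5 in ileum (adjusted p = 0.974). Genes of dividing cells were mostly ileal, with 17 of 22 tested higher in ileum, none in colon and a median log2 fold change of -1.07. The count was 13 to 18 with 1 library left out, lowest without colon replicate 1 or 3. Top2a, the topoisomerase of dividing cells, was at 194, 232 and 271 CPM in ileum and 49.6, 51.8 and 98.5 in colon (log2 fold change -1.8 ± 0.24, adjusted p = 3.04e-07). Mki67 was at 79.3, 70.9 and 87.9 CPM in ileum and 27.6, 37.4 and 37.6 in colon (log2 fold change -1.21 ± 0.26, adjusted p = 0.000513). Cdc20, which starts anaphase, was at 133, 99.1 and 118 CPM in ileum and 18.7, 27.8 and 52.1 in colon (log2 fold change -1.82 ± 0.34, adjusted p = 0.000133). Tyms, which makes thymidylate, was an exception at 23.9, 17.2 and 26.5 CPM in ileum and 18, 21 and 41.6 in colon (adjusted p = 0.428).

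Enzymes that handle foreign compounds used different family members in each region, 20 of 41 tested being higher in ileum and 9 in colon. Adh1, an alcohol dehydrogenase (chromosome 3, 138260991 to 138290698, plus strand), was at 1678, 1648 and 1707 CPM in colon and 12.4, 9.54 and 5.99 CPM in ileum (log2 fold change 7.41 ± 0.41, adjusted p = 6.95e-15). Gstm1, a glutathione transferase, was at 2078, 1137 and 395 CPM in colon and 77.4, 46.5 and 44 in ileum (log2 fold change 4.41 ± 0.57, adjusted p = 1.81e-06, with a log2 fold change of 3.76 without colon replicate 1). Of the Cyp2c family, Cyp2c55 was at 350.2, 284 and 215 CPM in colon and 58.3, 4.77 and 13 in ileum (log2 fold change 3.4 ± 0.80, adjusted p = 0.00242, with a log2 fold change of 5.14 without ileum replicate 1). Cyp2c68 was at 178, 175 and 77.9 CPM in colon and 7.4, 14.1 and 9.99 in ileum (log2 fold change 3.78 ± 0.56, adjusted p = 1.26e-05). Cyp2c65 was ileal, at 80.7, 52.7 and 165 CPM in ileum and 5.42, 3.7 and 4.12 in colon (log2 fold change -4.48 ± 0.38, adjusted p = 9.2e-11). Cyp3a25, an enzyme of drug and steroid oxidation, was at 134, 53.7 and 119 CPM in ileum with no count in colon (at least 508-fold higher in ileum, adjusted p = 3.96e-11). Its relative Cyp3a11 was at 116, 43.1 and 40.5 CPM in ileum, again with no count in colon (at least 391-fold higher in ileum, adjusted p = 2.95e-05). Cyp4f14 was at 386, 480.4 and 676 CPM in ileum and 23.2, 12.1 and 14.9 in colon (log2 fold change -4.95 ± 0.38, adjusted p = 1.55e-11). Near-identical members of these families can share reads, so their single counts are uncertain. Nr1i2, the receptor of foreign compounds (PXR), did not pass at 69, 133 and 142 CPM in ileum and 68.6, 38.2 and 132 in colon (adjusted p = 0.161). Among 19 retinoid genes tested, 8 were higher in ileum (5 without colon replicate 3) and 1, Adh1, in colon. Rdh7, a retinol dehydrogenase, was at 57.7, 69.7 and 62.4 CPM in ileum and had no count in any of the 3 colon libraries (at least 302-fold higher in ileum, adjusted p = 1.07e-10). Lrat, which stores retinol as esters, was at 24.3, 26.3 and 23.5 CPM in ileum and 2.71, 2.47 and 1.07 in colon (log2 fold change -3.59 ± 0.36, adjusted p = 1.19e-09).

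T cell and intraepithelial lymphocyte genes were mostly ileal, in a list that also holds the epithelial genes Ccl25 and Btnl1. Of 27 T cell and intraepithelial lymphocyte genes tested, 24 were higher in ileum and 1 in colon, with a median log2 fold change of -4.02. The list summed to 1043, 1570 and 1973 CPM in ileum against 66.8, 73.4 and 55.0 CPM in colon. A large part of the ileum sums is Ccl25 and Btnl1, given below, so the sums are not of lymphocyte RNA alone. The number higher in ileum was 21 to 24 with 1 library left out. The 1 colonic call was lost without colon replicate 1, ileum replicate 2 or ileum replicate 3. Gzma, a granule protease of killer lymphocytes, was at 154, 200.1 and 551 CPM in ileum and 0, 0 and 1.07 CPM in colon (log2 fold change -9.44 ± 1.02, adjusted p = 1.99e-07). Gzma had a log2 fold change of -13.68 without colon replicate 3 and -8.72 without ileum replicate 3. Cd3g, a chain of the T cell receptor complex, was at 6.47, 4.35 and 7.49 CPM in ileum and 0, 0.205 and 0 in colon (85.6-fold higher in ileum, 95% interval 15 to 3422, adjusted p = 7.95e-05). Cd8a was at 9.38, 14.9 and 20.0 CPM in ileum and 0, 1.23 and 0 in colon (log2 fold change -5.06 ± 1.07, adjusted p = 0.00047, with a log2 fold change of -9.35 without colon replicate 2 and -4.42 without colon replicate 3). Transcripts of Cd3g and Cd8a were few even in ileum. The list members Ccl25 and Btnl1, through which the epithelium draws or sustains these cells, were read more deeply. Ccl25, the chemokine that calls lymphocytes to the small intestine, was at 269, 642 and 485 CPM in ileum and 3.7, 0.617 and 2.69 in colon (log2 fold change -7.65 ± 0.41, adjusted p = 2.18e-15). Its receptor Ccr9 was at 11.8, 7.26 and 17.5 CPM in ileum and 0.247, 0.411 and 0.358 in colon (log2 fold change -5.03 ± 0.76, adjusted p = 3.66e-06). Btnl1, an epithelial surface protein that sustains gamma delta T cells, was at 184, 319.9 and 249 CPM in ileum and 2.71, 1.23 and 1.25 in colon (log2 fold change -7.21 ± 0.48, adjusted p = 1.45e-12).

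MHC class II genes were higher in ileum for 9 of 13 tested and in colon for none, with a median log2 fold change of -3.69 (7 to 10 higher in ileum with 1 library left out). H2-Aa, an alpha chain, was at 1713, 2459 and 3141 CPM in ileum and 169, 128 and 60.7 CPM in colon (log2 fold change -4.36 ± 0.57, adjusted p = 2.37e-06). Cd74, the invariant chain, was at 307, 528 and 331 CPM in ileum and 22.9, 19.7 and 21.7 in colon (log2 fold change -4.18 ± 0.42, adjusted p = 9.2e-09). H2-DMa, which helps load peptide, was at 89.8, 146 and 138 CPM in ileum and 5.42, 6.17 and 5.91 in colon (log2 fold change -4.41 ± 0.56, adjusted p = 1.24e-06). Ciita, the factor that drives the group, was at 57.1, 51.8 and 22 CPM in ileum and 1.97, 4.73 and 3.4 in colon (log2 fold change -3.69 ± 0.72, adjusted p = 0.000337). B cells carry these genes too. Ileum replicate 1, the library high in B cell genes, was the lowest ileum library for H2-Aa, Cd74 and H2-DMa and the highest for Ciita, and without it the median was -2.75. The part of B cells in the difference was not tested. Ctss and Ifi30, proteases and reductases of the same route, did not pass (adjusted p = 0.773 and 0.296).

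B cell and follicle genes rested on 1 library. The list summed to 1767, 123 and 97.9 CPM in ileum and 110.5, 218 and 66.7 CPM in colon. Of 26 tested, 5 were higher in ileum, near the 17.2% of all tested genes, and none in colon. The median log2 fold change was -2.68. Without ileum replicate 1 there were 1 higher in ileum and 2 in colon, and the median turned to 1.01. The count in ileum was 1 without colon replicate 1, 2 without colon replicate 3, 12 without ileum replicate 2 and 9 without ileum replicate 3. Cr2, of follicular B cells and dendritic cells, was at 125, 0.622 and 0.499 CPM in ileum and 1.97, 15.2 and 1.79 in colon (adjusted p = 0.194). Of 16 plasma cell genes tested, 12 were higher in ileum (9 to 11 with 1 library left out) and 1 in colon (0 without colon replicate 1 or 2 or ileum replicate 1 or 3). Jchain, which joins IgA into dimers, was at 615, 1002 and 861 CPM in ileum and 240.0, 156 and 112 in colon (log2 fold change -2.29 ± 0.47, adjusted p = 0.00052). Tnfrsf17, a survival receptor of plasma cells, was at 7.27, 5.81 and 7.99 CPM in ileum and 0.493, 0.822 and 1.07 in colon (log2 fold change -3.06 ± 0.62, adjusted p = 0.000217). Sdc1, shared by plasma cells and epithelium, did not pass (adjusted p = 0.286).

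Macrophages are the cells named in the title of the series. Of 28 macrophage and dendritic cell genes tested, 4 were higher in colon and 9 in ileum (4 and 5 without ileum replicate 1). The general macrophage genes Csf1r, Adgre1, Cd68 and C1qc did not pass (adjusted p = 0.811, 0.0586, 0.484 and 0.551), with Csf1r at 27.4, 17.7 and 13.3 CPM in colon and 15.6, 17.2 and 21 in ileum. Cx3cr1, the fractalkine receptor of gut macrophages, overlapped at 16.5, 12.3 and 10.9 CPM in colon and 17.7, 16.6 and 11 in ileum (adjusted p = 0.63). So did Ccr2, of incoming monocytes, at 3.7, 4.93 and 1.97 CPM in colon and 5.29, 5.39 and 2.5 in ileum (adjusted p = 0.626). The 4 members higher in colon, a share near the 15.3% of all tested genes, were Cd14, Folr2, Mrc1 and Lyve1. Cd14, a co-receptor for lipopolysaccharide, was at 178, 417 and 104 CPM in colon and 57.7, 69.7 and 95.9 in ileum (log2 fold change 1.66 ± 0.36, adjusted p = 0.000769, with a log2 fold change of 0.93 without colon replicate 2). Folr2, a folate receptor, was at 11.6, 9.87 and 15.1 CPM in colon and 0.264, 0.829 and 0 in ileum (log2 fold change 4.8 ± 0.83, adjusted p = 3.16e-05, with a log2 fold change of 5.72 without ileum replicate 2). Mrc1 was at 25.9, 40.3 and 40.3 CPM in colon and 10.3, 13.5 and 15 in ileum (log2 fold change 1.49 ± 0.30, adjusted p = 0.000202). Lyve1, which lymph vessels share, was at 30.3, 31 and 21.7 CPM in colon and 8.32, 12.9 and 12 in ileum (log2 fold change 1.34 ± 0.29, adjusted p = 0.000495). Itgax, of dendritic cells and some macrophages, was ileal at 48.6, 23.4 and 21.5 CPM in ileum and 6.91, 5.14 and 7.88 in colon (log2 fold change -2.25 ± 0.37, adjusted p = 1.53e-05). Of the neutrophil genes, S100a8 and S100a9 were at 0.622 CPM or less in every library. Ly6g, which is used as a neutrophil marker, was nonetheless at 319.6, 747 and 665 CPM in colon and 0.132, 0 and 0 CPM in ileum (8580-fold higher in colon, 95% interval 1540 to 338900, adjusted p = 7.41e-11). Whether this symbol also collects reads of a related Ly6 gene was not tested.

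The 3 SPF colon libraries held more RNA of muscle and connective tissue than the 3 SPF ileum libraries. Of 26 smooth muscle genes, 20 were higher in colon and none in ileum, with a median log2 fold change of 1.65. The list summed to 11110, 11870 and 12240 CPM in colon against 4467, 6464 and 1845 CPM in ileum. At 4259 CPM, the mean sum of SPF ileum at 10 weeks was the lowest of the 6 ileum groups of the series. The other ileum groups lay at 6468 to 10010 CPM. Untreated colon lay at 11740 (SPF) and 10920 CPM (COL), and DSS-treated colon at 4444 (SPF) and 6123 CPM (COL). Acta2, smooth muscle actin, was at 1798, 2713 and 1633 CPM in colon and 661, 941 and 156 CPM in ileum (log2 fold change 1.8 ± 0.42, adjusted p = 0.00177). Tagln, transgelin, was at 607, 347 and 514 CPM in colon and 51.5, 82.9 and 19 in ileum (log2 fold change 3.23 ± 0.53, adjusted p = 5.16e-05). Myh11, the smooth muscle myosin, was at 891, 792 and 599.5 CPM in colon and 199, 304 and 15 in ileum (log2 fold change 2.12 ± 0.62, adjusted p = 0.0111). The regions did not overlap in these 3, and ileum replicate 3 was the lowest library in each. With 1 library left out the number higher in colon was 16 to 23, lowest without colon replicate 3, and the median was 1.23 to 2.14, lowest without ileum replicate 3. Mylk, the myosin kinase, which epithelium also makes, did not pass at 1240, 1648 and 2136 CPM in colon and 1317, 2100 and 864 in ileum (adjusted p = 0.599). In COL mice 7 of the 26 were higher in colon, with a median of 0.81. Des, desmin, was at 245, 286 and 519.6 CPM in colon and 118, 175 and 9.99 in ileum (log2 fold change 1.77 ± 0.59, adjusted p = 0.0251, and 0.104 without colon replicate 3 and 0.0546 without ileum replicate 1).

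Matrix genes were higher in colon for 19 of 24 tested and in ileum for 1, with a median log2 fold change of 1.59, and the count was 18 to 20 with 1 library left out. Postn, periostin, was at 132, 491 and 65 CPM in colon and 10.3, 10.6 and 5.49 CPM in ileum (log2 fold change 4.63 ± 0.58, adjusted p = 1.02e-06, with a log2 fold change of 3.41 without colon replicate 2), with colon replicate 2 far above the others. Fn1, fibronectin, was at 269.8, 208 and 176 CPM in colon and 24.2, 34 and 14 in ileum (log2 fold change 3.14 ± 0.33, adjusted p = 6.17e-09). Col3a1, a fibrillar collagen chain, was at 568, 532 and 535 CPM in colon and 106, 139 and 125 in ileum (log2 fold change 2.15 ± 0.23, adjusted p = 4.22e-09). Col6a4 was the ileal member at 10.2, 9.75 and 12.5 CPM in ileum and 1.23, 1.44 and 0.537 in colon (log2 fold change -3.32 ± 0.53, adjusted p = 8.64e-06). Signals of stroma and interstitial cells of Cajal were higher in colon for 12 of 28 tested and in ileum for none, but for 4 of 29 without ileum replicate 1. Rspo3, a booster of Wnt signals, was at 3.21, 6.99 and 21 CPM in colon and 1.72, 3.32 and 0 in ileum (log2 fold change 2.44 ± 0.55, adjusted p = 0.000862). For Rspo3 the log2 fold change was 1.42 without colon replicate 3 and 3.05 without ileum replicate 2. Bmp2 was at 299, 316 and 408 CPM in colon and 113, 149 and 232 in ileum (log2 fold change 1.06 ± 0.27, adjusted p = 0.00326). Kit, shared by Cajal and mast cells, did not pass at 22.7, 21.8 and 17.7 CPM in colon and 13.1, 18 and 17.5 in ileum (adjusted p = 0.326).

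Nerve and glia genes were low, and 7 of 28 tested were higher in colon and 1 in ileum (2, 12 and 3 higher in colon without ileum replicates 1, 2 and 3). Nos1, of inhibitory motor neurons, was at 14.3, 11.9 and 11.8 CPM in colon and 2.11, 3.11 and 0 in ileum (log2 fold change 2.64 ± 0.58, adjusted p = 0.000568). Grp, gastrin-releasing peptide, was at 3.95, 5.96 and 0.717 CPM in colon and 0.132, 0 and 0 in ileum (48.6-fold higher in colon, 95% interval 8.33 to 1960, adjusted p = 0.00011). Vip, of secretomotor neurons, was at 59.4, 66.8 and 34.4 CPM in colon and 17, 53.3 and 25 in ileum (adjusted p = 0.0718). The glial gene S100b was at 5.18, 6.37 and 9.14 CPM in colon and 7.13, 5.18 and 0.499 in ileum (adjusted p = 0.409), and both overlapped. Of 10 adipose genes, 1 was higher in each region (0 in colon without colon replicate 1), and most were high in ileum replicates 1 and 2 and near 0 in replicate 3. Cfd, for one, was at 229, 101 and 0 CPM in ileum and 32.8, 17.7 and 8.96 in colon (adjusted p = 0.358). Cidec, which both fat cells and enterocytes use to coat droplets, was higher in all 3 ileum libraries at 80.6, 103 and 87.4 CPM in ileum and 5.92, 1.64 and 2.15 in colon (log2 fold change -4.85 ± 0.61, adjusted p = 9.74e-07). For Cidec the log2 fold change was -5.55 without colon replicate 1.

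**Figure D4:**
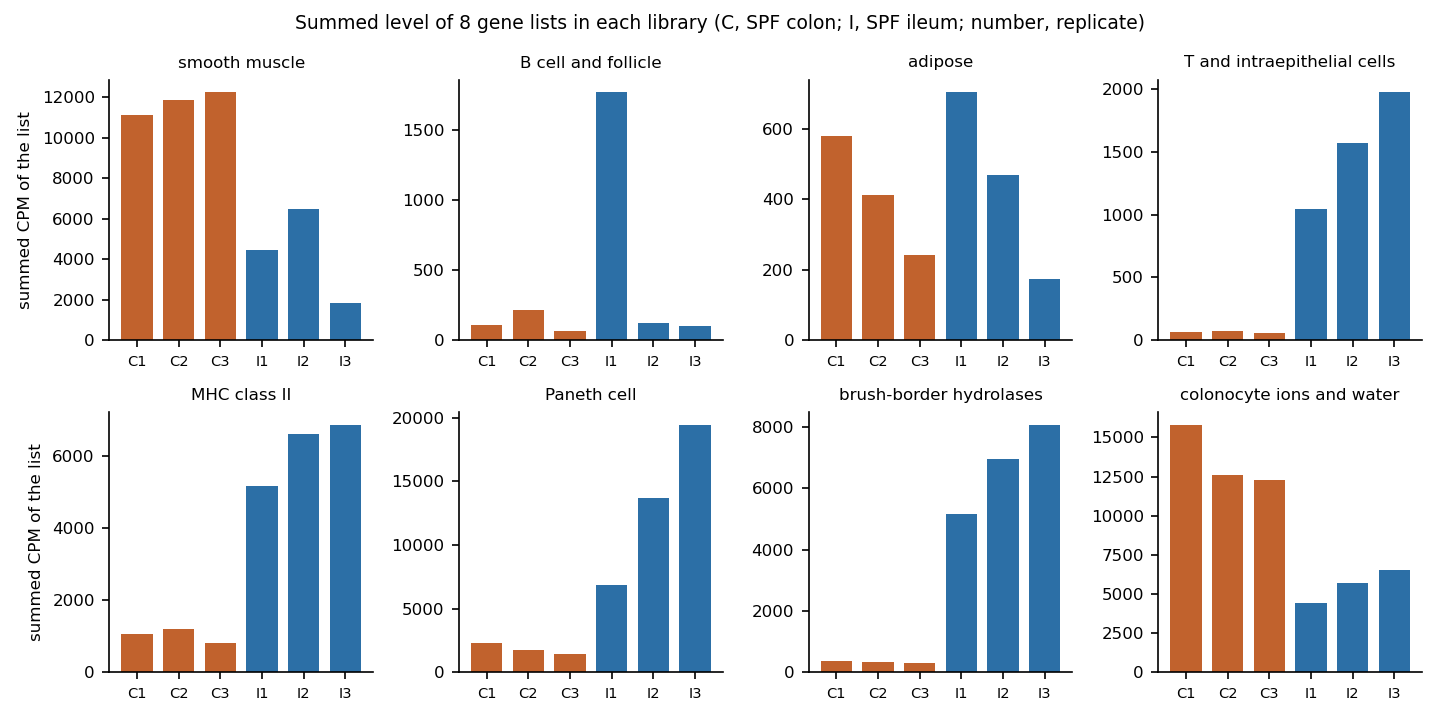
Summed CPM of 8 gene lists in each of the 3 SPF colon and 3 SPF ileum libraries (1 panel per list, 1 bar per library, linear axes from 0). Brush-border and Paneth sums separate the regions in ileum's favour and smooth muscle sums in colon's. The B cell and follicle sum is high in ileum replicate 1 only, at 1767 CPM, and the smooth muscle sum is lowest in ileum replicate 3, at 1845 CPM.

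Markers of tissue from outside the gut wall were looked for because some of the regional genes are better known elsewhere. The pancreatic enzyme genes Cpa1 and Prss2 were at 0.717 CPM or less in every library and Pnlip had no count. Sycn, a syncollin of pancreatic granules, was nonetheless at 3123, 5167 and 3277 CPM in colon and 0.528, 0 and 0.499 CPM in ileum (log2 fold change 13.36 ± 1.29, adjusted p = 4.2e-08). Cela1, an elastase, was at 134, 148 and 238 CPM in colon and 7.66, 4.15 and 6.49 in ileum (log2 fold change 4.81 ± 0.44, adjusted p = 9e-10). Ttr, transthyretin, was at 66.6, 98.2 and 55 CPM in colon and 2.25, 5.39 and 3.0 in ileum (log2 fold change 4.37 ± 0.54, adjusted p = 2.21e-07). The squamous keratin Krt5 was at 0.717 CPM or less in every library. Krt14 was at 2.71, 7.19 and 3.94 CPM in colon and 0.264, 0.829 and 0 in ileum (log2 fold change 3.41 ± 0.94, adjusted p = 0.00532, with a log2 fold change of 4.35 without ileum replicate 2). Haemoglobin genes are listed at 0 in all 6 libraries, but they have near-identical copies and reads that align to several places were left out, so these zeros do not show that blood was absent. Alas2, of red cell precursors, was at 11.6, 4.11 and 8.06 CPM in colon and 1.19, 0.207 and 4.0 in ileum (log2 fold change 2.41 ± 0.74, adjusted p = 0.0119). Alas2 had an adjusted p of 0.0592 without colon replicate 1, 0.0582 without ileum replicate 1 and 0.0818 without ileum replicate 2. The platelet gene Pf4 was at 30.8, 19.1 and 28.9 CPM in colon and 2.11, 2.7 and 4.0 in ileum (log2 fold change 3.25 ± 0.53, adjusted p = 1.12e-05).

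The same regions were sampled in COL mice, in 6 libraries outside the SPF contrast. All 30 libraries entered the same model and share its estimates of spread, so the SPF and COL calls are not independent tests. There 3620 genes were called (26.2%), 1640 higher in colon (11.9%) and 1980 lower in colon (14.3%), with a median log2 fold change of -0.008 over all tested genes. Of the 2108 SPF genes higher in colon, 58.7% were called higher in COL colon, and of the 2376 lower in colon, 65.1% were called lower, and none was called the other way. Of the genes called in COL, 75.5% of those higher and 78.1% of those lower were called the same way in SPF. Fabp6 was at 22.9 ± 22.8 CPM in COL colon and 15900 ± 5302 CPM in COL ileum (log2 fold change -9.44 ± 1.04, adjusted p = 3.03e-07), beside 9.66 ± 4.52 CPM in SPF colon and 27190 ± 9030 CPM in SPF ileum. Car1 was at 1597 ± 299 CPM in COL colon and 1.43 ± 1.36 CPM in COL ileum, beside 1857 ± 426 CPM in SPF colon and 0.113 ± 0.105 CPM in SPF ileum. Hoxb13 was at 447 ± 67.8 CPM in COL colon and 0.695 ± 0.805 CPM in COL ileum, beside 680.0 ± 446 CPM in SPF colon and 0 ± 0 CPM in SPF ileum. The direct test of a difference between the SPF and COL contrasts called 0 of 13807 genes (0%) with edgeR, with 914 at an unadjusted p under 0.05, and 5 with DESeq2. Of those 5, Slc3a1 had a log2 fold change of -8.89 ± 0.61 in SPF and -5.64 ± 0.47 in COL mice, a difference of -3.25 ± 0.83 (adjusted p = 0.52 with edgeR).

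Over the whole series, 406 tested genes had all 12 colon libraries above all 18 ileum libraries (2.94%), and 624 the reverse (4.52%), whatever the age, microbiota or DSS treatment. These included 399 of the 2108 SPF genes higher in colon (18.9%) and 618 of the 2376 lower in colon (26%), the 6 SPF libraries being part of both counts. Hoxd13 ran from 48.8 to 210.5 CPM over the colon libraries and from 0 to 0.351 CPM over the ileum libraries, and Slc26a3 from 489 to 2535 and 127 to 273 CPM. Car1 ran from 274 to 2143 CPM over the colon libraries, DSS-treated ones included, and from 0 to 3.52 CPM over the ileum libraries. Hoxc8 ran from 9.49 to 53.8 CPM in ileum and 0 to 0.179 CPM in colon, and Npc1l1 from 357 to 834 and 0 to 0.878 CPM.

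**Figure D5:**
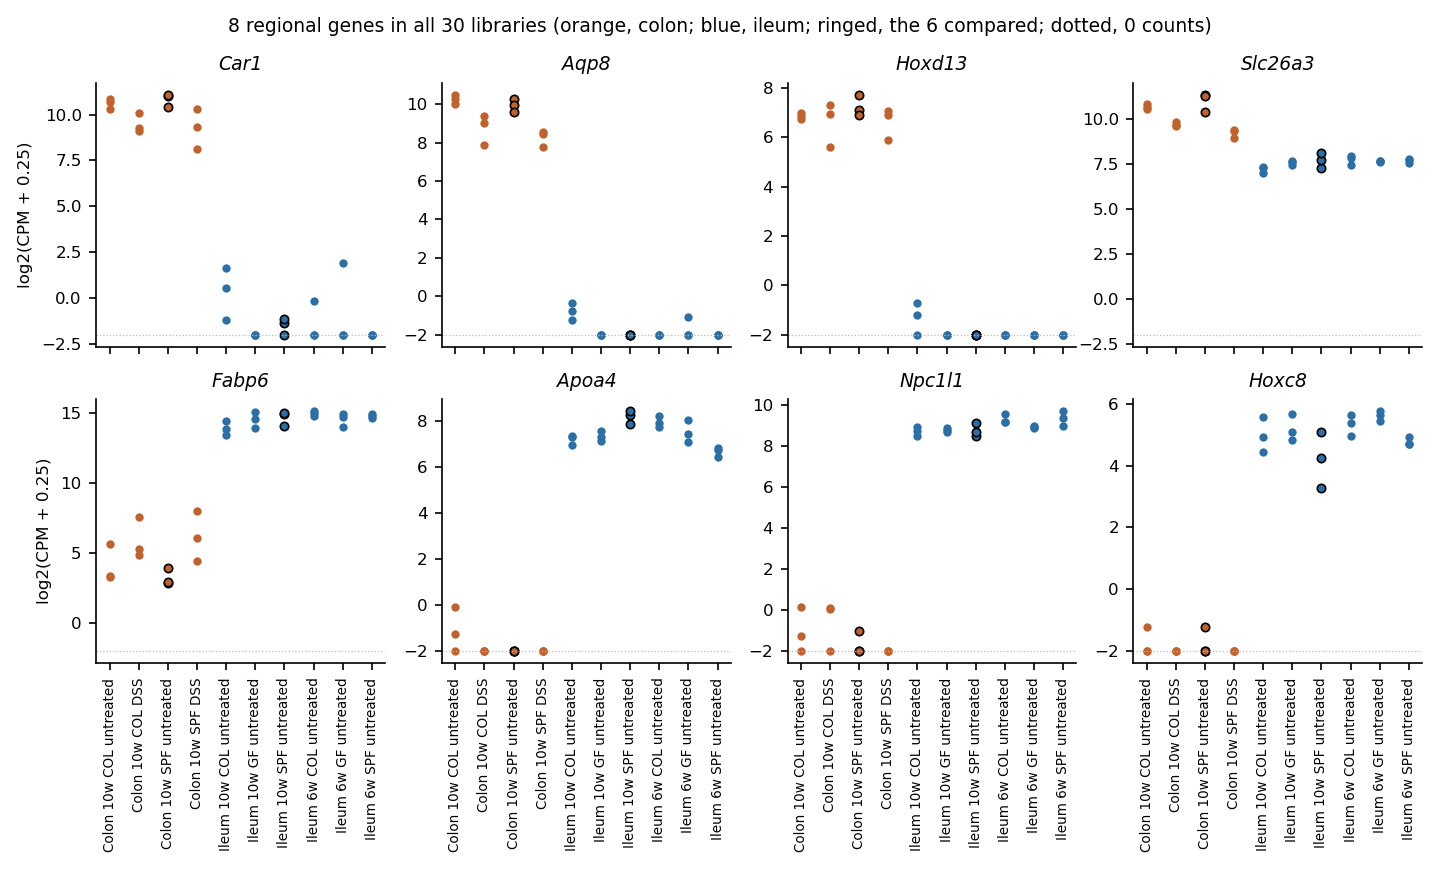
Levels of Car1, Aqp8, Hoxd13, Slc26a3, Fabp6, Apoa4, Npc1l1 and Hoxc8 in all 30 libraries (1 panel per gene, 1 point per library, grouped by the 10 groups of the series, log scale of CPM plus an offset). In every panel the 12 colon libraries and the 18 ileum libraries do not overlap.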

How the data were processed

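The deposited files hold, per library, the authors' counts of reads per gene symbol (24746 symbols) with 5 summary lines that name no gene and were left out of totals and tests. Per the labels' protocols, total RNA was extracted with Qiazol and made into 3′ tag libraries with the QuantSeq kit for Ion Torrent. The submitters' processing notes name Trimmomatic 0.36, FastQC 0.11.5, STAR 2.5.3a, HTSeq and build mm10; the HTSeq version, strand setting and annotation are not given in the sources used here. In the 6 libraries, 44.6 to 48.3% of reads listed were assigned to genes and 29.5 to 36.9% aligned to several places and were left out by the counting, so near-identical genes are uncertain.

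All 30 libraries (10 groups of 3) entered 1 model of edgeR 4.0.16, run under R 4.3.3 (TMM totals, low genes dropped by filterByExpr with the groups, robust estimation, glmQLFTest, 13807 genes, common biological coefficient of variation 0.258). The fit was also run on counts simulated from its own estimates of spread, with few genes changed. Such a run cannot test the scaling or the error rate in these data, where many genes differ. Standard errors are the log2 fold change over the square root of F. No library repeats another, the chi-square per degree of freedom between libraries of 1 region being 12.4 to 41.4. Alternatives were DESeq2 1.42.0, other scaling, no filter, a 2-fold threshold, only the libraries compared, the replicate number as a block, and leaving out each library.

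The 38 gene lists (897 genes, 878 in the files, 749 tested) and the genes to be named were chosen with earlier results of these data known, and lists are described by counts and medians without a test. Named genes are the 15 largest called differences in each direction with at least 32 CPM in the higher region and no overlap (predicted genes, receptor segments and small RNAs left out), up to 4 members of smallest p per list and direction, every Hox gene, and other list members given as values. Some genes that this rule names are not reported here. AA986860 and the families in the closing section were chosen after their values were seen. Promoter windows came from RefSeq on GRCm38.p6, and gene positions from GENCODE vM21.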

Additional observations from a re-analysis of the deposited data

How the results depend on the processing

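Requiring a change of over 2-fold left 1457 genes in SPF mice (677 higher and 780 lower in colon) and 1114 in COL mice (487 and 627). Fitting only the 6 libraries compared gave 2551 (1214 and 1337), of which 2540 were among the 4484. Adding the replicate number as a block to that fit gave 1997 (951 and 1046), of which 1986 were among the 4484. In COL mice the same fits gave 4094 and 3768 against 3620. This replicate block is given only here, because same-numbered colon and ileum libraries did not deviate together (residual correlations of -0.116, -0.073 and -0.031). DESeq2 called 4621 genes, 4429 of them shared, and its size factors within edgeR gave 4480. Total counts without TMM gave 2422 higher and 1990 lower, so that 54.9% of calls were higher in colon against 47%, with the median over all genes at 0.09. Testing without a filter on low counts gave 4205. Leaving out each library in turn gave 3580 to 4644 genes in SPF and 2727 to 3257 in COL mice. The test of a difference between the SPF and COL contrasts gave 5 genes with DESeq2 and 0 to 8 with 1 library left out, namely 8 without SPF colon replicate 3, 7 without SPF ileum replicate 1, 1 without SPF colon replicate 1 and 1 without COL colon replicate 3. The cause of these shifts and of the fewer SPF calls with only the 6 libraries was not tested. Of 219 genes named by rule, 54 lost their call under the 2-fold threshold, 24 with only the 6 libraries and 28 with the block (of the 209 tested there), 7 without the filter, 3 with total counts, 1 with DESeq2, 1 with its size factors and 13 to 20 with 1 library left out. The B cell gene Ccr6 (adjusted p = 0.0311) reversed without ileum replicate 1, to a log2 fold change of 0.55 (adjusted p = 0.765), and ranged from -4.227 to 0.55 over all libraries left out.

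At 2233837 to 6773586 assigned reads a library, the floor of 3 counts limits what a region without a count shows, and folds written "at least" are set by depth. Ileum replicate 3 was the shallowest library. Each region has 3 libraries, while the spread behind the p-values was estimated over all 30 libraries of the series. Of the 459 called list genes, 109 lost their call without some library.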

Other observations

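The gene families below were chosen after their values were seen, and some of their members stand in the lists above. Of 9 Cyp2d genes (1 a pseudogene by its name), a family of drug-oxidizing enzymes, 7 were higher in colon and 1 in ileum, against 15.3% and 17.2% of all tested genes. Cyp2d34 was at 252, 228 and 234 CPM in colon and had no count in any of the 3 ileum libraries (at least 1138-fold higher in colon, adjusted p = 8.69e-12). Cyp2d9 was at 82.4, 98.7 and 64 CPM in colon and had no count in any of the 3 ileum libraries (at least 387-fold higher in colon, adjusted p = 6.88e-09). All 4 genes of the Cyp3a family were higher in ileum, the other way round. Reads of near-identical members of either family can be shared or lost, so single counts are uncertain. All 4 gasdermin C genes, of a family of pore-forming proteins, were higher in colon, with Gsdmc2 at 309.7, 625 and 794 CPM in colon and 30.3, 22 and 17.5 in ileum (log2 fold change 4.6 ± 0.76, adjusted p = 6.25e-05). Of 10 S100a genes, small calcium-binding proteins, 7 were higher in colon and 1 in ileum. S100a6 was at 7389, 7671 and 15820 CPM in colon and 969, 986 and 692 in ileum (log2 fold change 3.54 ± 0.26, adjusted p = 1.88e-12) and took 1.11% of the colon counts. S100a10 was the ileal member at 939, 1180 and 1390 CPM in ileum and 448, 736 and 619 in colon (log2 fold change -0.96 ± 0.21, adjusted p = 0.000683). Of 7 mu-class glutathione transferase genes, 5 were higher in colon and none in ileum.

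Of 11 beta-3 glycosyltransferase genes, 5 were higher in colon and none in ileum, and of 10 beta-4 galactosyl and N-acetylgalactosaminyl transferase genes, 5 were higher in ileum and none in colon. B3gnt5, which starts lacto-series glycolipids, was at 76.5, 107 and 134 CPM in colon and 10.3, 3.11 and 2.5 in ileum (log2 fold change 4.14 ± 0.42, adjusted p = 9.2e-09). B4galt6, a lactosylceramide synthase, was at 60.0, 73.8 and 47.9 CPM in ileum and 14.8, 28.2 and 27.4 in colon (log2 fold change -1.37 ± 0.23, adjusted p = 1.42e-05). Claudins seal the space between epithelial cells. Of 12 tested, 3 were higher in colon and 2 in ileum, against 15.3% and 17.2% of all tested genes. Cldn8, a barrier-forming claudin, was at 99.6, 107 and 81.3 CPM in colon and 3.04, 5.39 and 9.99 in ileum (log2 fold change 4.15 ± 0.36, adjusted p = 5.44e-11). Cldn15, which forms a pore for sodium, was at 262, 505 and 374 CPM in ileum and 28.9, 21.8 and 11.8 in colon (log2 fold change -4.2 ± 0.42, adjusted p = 1.01e-08). Of 7 Fxyd genes, which tune the sodium pump, 6 were higher in colon and none in ileum. Of 15 Kruppel-like factor genes, 5 were higher in colon and none in ileum, among them Klf4 at 385, 534 and 352 CPM in colon and 157, 200.3 and 169 in ileum (log2 fold change 1.27 ± 0.18, adjusted p = 8.57e-07). Klf9 was at 397, 353 and 336 CPM in colon and 83.2, 121 and 141 in ileum (log2 fold change 1.66 ± 0.21, adjusted p = 1.33e-07). Of 6 aquaporin genes, 2 were higher in colon and 4 in ileum. Butyrophilin-like genes were higher in ileum for 3 of 4 tested, Slc5a carriers for 5 of 10 and Slc7a carriers for 6 of 10, with 0, 1 and 1 higher in colon.

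The remaining lists are small, and over all tested genes 32.5% were called. Of 14 circadian genes, 5 were higher in colon and 3 in ileum, and the counts were 3 and 2 without colon replicate 1, 3 and 1 without colon replicate 3, 3 and 2 without ileum replicate 1 and 2 and 2 without ileum replicate 2. Hours of sampling are not given in the sources used here. Of 16 immediate early and heat shock genes, 4 were higher in colon and 1 in ileum (0 in ileum without colon replicate 1 or 3 or ileum replicate 3, 2 without colon replicate 2). Of 13 genes of the mitochondrial chain, 2 were higher in colon and 3 in ileum, or 0 and 1 without colon replicate 1, 2 and 0 without colon replicate 2, 1 and 3 without ileum replicate 1 and 1 and 1 without ileum replicate 2. Of 10 neutrophil and cytokine genes, 2 were higher in colon and 1 in ileum (0 in ileum without colon replicate 2 or 3 or ileum replicate 1). The counts higher in colon and in ileum were 3 and 0 of 7 squamous genes, 1 and 0 of 6 skeletal muscle genes, 1 and 1 of 8 lymph node and mesothelium genes, 3 and 0 of 4 pancreas and liver genes, and 2 and 0 of 2 blood genes. The skeletal muscle count in colon was 0 without ileum replicate 3 and 2 without colon replicate 1 or 3 or ileum replicate 1, and 1 such gene was higher in ileum without colon replicate 1 or 2. The blood count was 1 without colon replicate 1, ileum replicate 1 or ileum replicate 2. The lymph node and mesothelium count in ileum was 0 without colon replicate 1 or 3 or ileum replicate 1, and 2 without ileum replicate 3.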
